A study of Mus musculus with 2 samples.

Results

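Dividing cells of pancreatic tumours were described in 2 single-cell RNA libraries, named EL1 and WTg after the mouse lines. The cells were chosen by their measured counts. A barcode was taken as mitotic when it held at least 500 genes, at least 10000 UMIs (unique molecular identifiers, each standing for 1 captured transcript), at most 20% UMIs from mitochondrial genes, fewer than 2 UMIs of Atp4b, a gastric proton pump subunit, and at least 1 UMI in at least 4 of the 6 genes Plk1, Cdc20, Ube2c, Ccna2, Top2a and Mki67. The words mitotic and dividing here name cells that met this rule. Cells in S phase or G2 can also meet it, since Ccna2 and Top2a belong to those phases too. Of 3109 barcodes in all, 251 met the rule, 126 among 1621 barcodes of EL1 and 125 among 1488 of WTg. They were set against cells of the same library that passed the same filter and held no UMI of any of the 6 genes, which numbered 357 in EL1 and 237 in WTg. The remaining cells of the filter, 396 in EL1 and 341 in WTg, held 1 to 3 of the 6 genes. The libraries held 39171674 UMIs in EL1 and 34871992 in WTg, of which the mitotic cells held 7932013 and 8223869.

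EL1 is an FVB/N line that carries the SV40 large T antigen and firefly luciferase, each under the rodent elastase I promoter, which is active in acinar cells. WTg mice carry these same transgenes and a Mettl3 open reading frame under the CAG promoter, which is active in most cell types. The Mettl3 line was made in C57BL/6 mice and crossed to EL1, so the transgene and the strain background cannot be told apart. All animals were 6 weeks old, and how many animals, of which sex, went into a library is not given in the sources used here. With 1 library per group no difference was tested, and every interval given is a 95% interval that covers counting error only.

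Acinar cells fill zymogen granules with digestive enzymes and depend on a small set of transcription factors, among them Ptf1a, Rbpjl and Bhlha15, to keep that secretory state. Neuroendocrine cells of the pancreas and gut store peptides and amines in dense-core granules that hold chromogranins and prohormone convertases. A cell that divides rounds up, condenses its chromosomes and silences much transcription, and the anaphase-promoting complex then destroys cyclins and other mitotic proteins on a fixed schedule. SV40 large T antigen binds the retinoblastoma protein and p53, the main brakes on entry into the cycle.

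The genes that chose the cells share a promoter feature that the rule did not use. A CHR-like element, spelled here TTTGAA or TTTAAA on either strand (TTCAAA is TTTGAA read on the other strand), is the sequence class through which the DREAM and MuvB complexes are known to time cell cycle genes. The RefSeq promoter table (GRCm38.p6, 250 bases before to 50 after each start) held 5 of the 6 rule genes, all but Ccna2. All 5 had such an element and also a CCAAT box, searched as CCAAT or ATTGG. The windows around the element nearest the start are given 5′ to 3′ on the gene's strand, with the element in capitals, because these promoters belong to the genes that define the cells.

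Plk1: gcgggtttgtatTTTAAAtccccgcggcca
Cdc20: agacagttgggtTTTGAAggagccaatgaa
Ube2c: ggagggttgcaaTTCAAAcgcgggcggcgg
Top2a: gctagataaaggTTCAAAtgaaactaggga
Mki67: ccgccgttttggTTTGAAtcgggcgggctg

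The Plk1 window lies at chr7:122159394-122159423 on the plus strand, and that of Cdc20 at chr4:118437344-118437373 on the minus strand. The Ube2c window lies at chr2:164769888-164769917 on the plus strand, and that of Top2a at chr11:99024195-99024224 on the minus strand. The Mki67 window lies at chr7:135716460-135716489 on the minus strand. The elements began 29, 18, 29, 23 and 98 bases upstream of the RefSeq start of Plk1, Cdc20, Ube2c, Top2a and Mki67. A CHR-like element was held by 27.6% of all 32851 promoters, a CCAAT box by 37.4% and both by 10.7%. Of 33 promoters of other mitotic genes 75.8% held the element and 63.6% held both motifs, while 13.6% of 22 promoters of acinar enzymes and 5.88% of 17 of neuroendocrine granule genes held both. A match is a string of letters and not a measured binding site.

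The Mettl3 transcript, the target of the added transgene, was checked first. In EL1 it stood at 12.4 CPM (UMIs of the gene per 1000000 UMIs of the same cells) in mitotic cells and at 16.8 CPM in cells with none of the 6 genes. In WTg it stood at 57.0 and 60.5 CPM. The WTg level was higher by a log2 ratio of 2.21 (1.89 to 2.54) in mitotic cells and of 1.84 (1.59 to 2.10) in the cells without the 6 genes, which goes with the labels. Within EL1 the mitotic cells were lower by a log2 ratio of −0.45 (−0.82 to −0.08), and within WTg the interval of the ratio held 0 (−0.08, −0.27 to 0.10). Whether a UMI came from the transgene or the endogenous gene was not resolved.

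Mitotic cells made up 14.3% of the 879 EL1 cells of the filter (12.1 to 16.8, exact Clopper-Pearson interval) and 17.8% of the 703 WTg cells (15.0 to 20.8). The Atp4b limit left out 64 otherwise passing barcodes of EL1 and 0 of WTg. Of those 64, 35 met the gene part of the rule (54.7%), so the filter lowered the EL1 share only. Depth moved with the rule. A deeper cell has more chances to show 4 genes, but whether this made the difference in depth was not tested. The median was 52107 UMIs per mitotic cell against 23367 in cells without the 6 genes in EL1, and 55108 against 32480 in WTg. After each cell was thinned to 10000 UMIs the shares were 9.78% and 10.8%. A barcode sequence found in both libraries occurred 15 times, and 8 of these were mitotic cells of EL1 with 150430 to 228500 UMIs that held 520 to 880 UMIs in WTg. Without the shared barcodes the EL1 share was 13.6%, and no shared barcode was in either WTg cell group.

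Some barcodes carried markers of other cell types. At least 4 genes of a macrophage, leukocyte, endothelial or fibroblast list were present in 5 mitotic cells of EL1 and 6 of WTg, and in 8 and 24 cells without the 6 genes. The 11 macrophage markers summed to 330 CPM in mitotic cells and 519 CPM in the others in EL1, and to 556 and 2323 CPM in WTg. Once these barcodes were left out the sums were 45.2 and 41.6 CPM in EL1 and 100.4 and 118.5 CPM in WTg. Genes at least 2-fold lower in mitotic cells numbered 124 in EL1 and 526 in WTg, and 50 and 60 without these barcodes. For that reason a second comparison was made, of cells with 20000 to 60000 UMIs and no such marker set. It held 67 mitotic cells and 205 others in EL1, with medians of 39655 and 29544 UMIs, and 67 and 161 in WTg, with medians of 39887 and 34250. Its bounds were chosen after seeing the data, and it is called the depth-limited comparison.

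The label was checked against markers. Krt8, an intermediate filament gene of simple epithelia, stood at 5503 CPM in mitotic cells of EL1 and 4862 CPM in those of WTg, against 893 and 1954 CPM in macrophage-marked barcodes, those with at least 4 of the 11 macrophage genes. Beyond the rule genes, a list of 36 other mitotic genes stood at least 2-fold higher in 35 cases in EL1, with a median log2 ratio of 6.27, and in 36 cases in WTg, also with a median of 6.27. Birc5, the survivin subunit of the chromosomal passenger complex, stood at 202 against 0.88 CPM in EL1 and 226 against 1.33 CPM in WTg, and Cenpf, a kinetochore protein, at 287 against 1.57 CPM and 284 against 2.66 CPM. Over all genes with at least 50 UMIs in both cell groups together, 6.5% of 10999 were at least 2-fold higher and 1.13% at least 2-fold lower in mitotic cells of EL1, and 7.5% and 4.79% of 10984 in WTg. These counts come from the same cells as the rule and only describe them. The T antigen transcript was not analysed here, so tumour origin rests on the tissue and not on the transgene.

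The levels of the rule genes in mitotic cells spanned more than a factor of 10. Plk1, the polo-like kinase of spindle assembly and mitotic entry, was the lowest at 24.6 CPM in EL1 (21.3 to 28.3) and 26.0 CPM in WTg (22.7 to 29.8). Cdc20, the activator of the anaphase-promoting complex, stood at 87.0 CPM in EL1 and 154 CPM in WTg. Ccna2, the cyclin of S phase and G2, stood at 159 and 170 CPM. The other 3 genes were more abundant and close to each other. Ube2c, the ubiquitin-conjugating enzyme of the same complex, stood at 367 and 441 CPM. Top2a, which untangles sister chromatids, stood at 394 and 509 CPM. Mki67, which coats mitotic chromosomes, stood at 429 and 487 CPM. Plk1 had a UMI in 71 of 126 and 75 of 125 mitotic cells, and Mki67 in 124 and 124.

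The rule cut a continuous scale. With 3 of the 6 genes there were 54 cells in EL1 and 48 in WTg, and with exactly 4 there were 29 and 28. The other mitotic genes summed to 334 CPM at 3 genes and 1001 CPM at 4 in EL1, and to 417 and 873 CPM in WTg. At 6 genes, with 58 and 65 cells, they reached 3811 and 4441 CPM. Acinar enzymes summed to 169675 CPM at 3 genes and 177483 CPM at 4 in EL1, and to 187827 and 199381 CPM in WTg, and stood at 141560 and 163414 CPM at 6 genes. Cells just inside and just outside the rule were thus close in their enzyme content, and the cells with all 6 genes held the least.

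**Figure D1:**
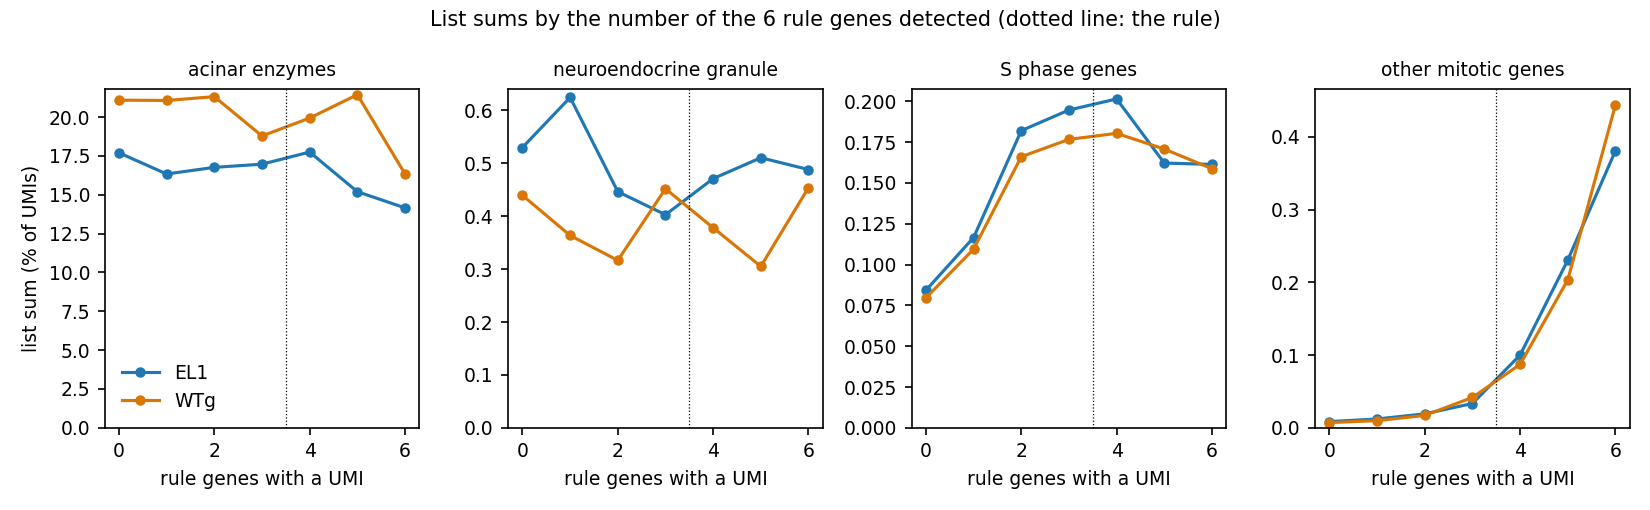
Sum of each gene list as a percent of all UMIs (vertical axes, from 0) against the number of the 6 rule genes with a UMI (horizontal axes), in EL1 and WTg, with a dotted line at the rule. The other mitotic genes climb along the whole axis and most steeply from 3 genes on, the S phase genes are already high at 2 and 3 genes, and the acinar enzymes are lowest at 6 genes in both libraries.

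Dividing cells kept the digestive enzymes. Enzyme transcripts made up 15.2% of all UMIs in mitotic cells of EL1 against 17.7% in cells without the 6 genes, and 18.3% against 21.1% in WTg. Of 22 enzyme genes with at least 50 UMIs in EL1, 3 were at least 2-fold higher and 1 at least 2-fold lower, and of 25 in WTg none passed 2-fold in either direction. Over all genes 6.5% were 2-fold higher and 1.13% lower in EL1, and 7.5% and 4.79% in WTg. The median log2 ratio over the list was −0.10 in EL1 and −0.15 in WTg, beside medians of 0.09 and 0.12 over all genes. In the depth-limited comparison the list stood further down, with medians of −0.49 and −0.39 where all genes had 0.19 and 0.25. There 18 of the 21 enzyme genes measured in both libraries had a ratio below 0 in both and none a ratio above 0 in both, where 18% of all genes were below 0 and 56.2% above 0 in both. In single libraries 20 of 21 enzyme genes in EL1 and 19 of 24 in WTg were below 0, where 32.1% and 30% of all genes were below 0 and 67.9% and 70% above.

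The most abundant enzymes differed little over all cells and more in the depth-limited comparison. Cpa1, a carboxypeptidase, stood at 16887 CPM in mitotic cells and 17241 CPM in the others in EL1, and at 15811 and 18065 CPM in WTg. Ctrb1, a chymotrypsinogen, stood at 25303 and 24457 CPM in EL1 and at 26830 and 28557 CPM in WTg. The levels of both differed by log2 ratios between −0.19 and 0.05, and in the depth-limited comparison Cpa1 had −0.36 and −0.37 and Ctrb1 −0.49 and −0.25. Cela2a, an elastase, was lower in mitotic cells by log2 ratios of −0.24 in EL1 and −0.22 in WTg, and of −0.76 and −0.75 in the depth-limited comparison. Prss2, a trypsinogen, stood at 16586 against 23435 CPM in EL1 and at 13310 against 18048 CPM in WTg, ratios of −0.50 (−0.51 to −0.49) and −0.44 (−0.45 to −0.43), with −0.87 and −0.50 in the depth-limited comparison. Try5, a further trypsinogen, had −0.36 and −0.04, with −1.07 and −0.24 in the depth-limited comparison, and since trypsinogen genes are near-identical copies the split of reads among them is uncertain.

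Clps, the cofactor of pancreatic lipase, was named after its values were seen. It stood at 9157 CPM against 13162 CPM in EL1 and at 13879 against 19996 CPM in WTg, log2 ratios of −0.52 and −0.53, and −0.77 and −0.55 in the depth-limited comparison. Rnase1, the secreted ribonuclease, was lowest in the EL1 list at 18.4 against 42.8 CPM (−1.22, −1.50 to −0.94) and stood at 276 against 398 CPM in WTg (−0.53). Pnlip, the lipase itself, was highest in EL1 at 6.56 against 1.37 CPM (2.26, 1.38 to 3.22), and 20.7 against 18.6 CPM in WTg (0.15, −0.17 to 0.47). These are low levels, from 52 mitotic UMIs in EL1 and 170 in WTg. Prss1, highest in WTg at 5604 against 3826 CPM (0.55), had −0.50 there in the depth-limited comparison, and in EL1, where it was among the 3 genes past 2-fold (1.90, and −0.19 in the depth-limited comparison), 82.8% of its mitotic UMIs came from 1 cell. The remaining gene of those 3 was Klk1, a tissue kallikrein named after its values were seen, at 270 against 72.2 CPM in EL1 (1.90) with 38.2% of the mitotic UMIs in 1 cell and at 443 against 513 CPM in WTg (−0.21). In the depth-limited comparison its ratios were 3.97 and −1.53. Ctrc, lowest in WTg (−0.81, −1.51 to −0.14), rested on 30 mitotic UMIs.

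**Figure D2:**
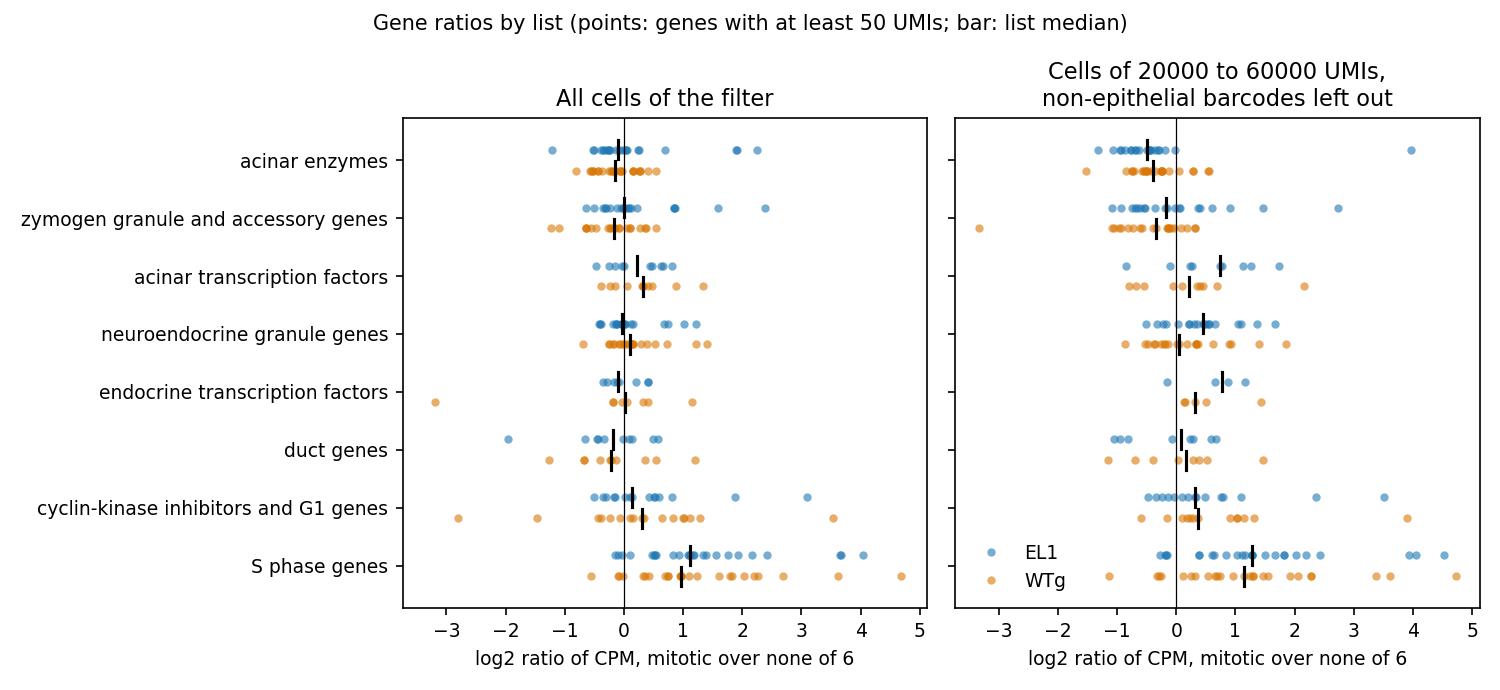
Log2 ratio of mitotic cells over cells with none of the 6 genes (horizontal axes) for each gene with at least 50 UMIs (points) of 8 lists (vertical axis), and the list median (short lines), in EL1 and WTg, for all cells and for the depth-limited comparison. The acinar enzymes lie at medians of −0.10 and −0.15 in all cells and −0.49 and −0.39 in the depth-limited comparison, while acinar transcription factors have medians of 0.23, 0.32, 0.74 and 0.22.

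Over all cells of the filter, proteins of the zymogen granule and secreted accessory proteins followed the enzymes in WTg and less so in EL1. Their sum was 3.07% of UMIs against 3.65% in EL1 and 4.02% against 5.65% in WTg. Of 20 genes in EL1, 2 were at least 2-fold higher and none 2-fold lower, and of 21 in WTg none was higher and 2 were lower, with medians of 0.01 and −0.17. Among all genes 6.5% were 2-fold higher in EL1 and 4.79% 2-fold lower in WTg. In the depth-limited comparison the medians were −0.18 in EL1 and −0.34 in WTg, where all genes had 0.19 and 0.25. There 11 of 20 genes had a ratio below 0 in both libraries and 3 a ratio above 0 in both. Of all genes 18% and 56.2% did. Reg1, a secreted regenerating protein and the most abundant of the list, stood at 21633 against 26906 CPM in EL1 (−0.31) and at 27950 against 43500 CPM in WTg (−0.64). Spink1, the trypsin inhibitor packed with the enzymes, had −0.05 in EL1 and 0.27 in WTg. Tff2, a trefoil peptide, had −0.51 and −0.22, and Gp2, the main glycoprotein of the zymogen granule membrane, had −0.64 and −0.47 but −0.01 and −0.12 in the depth-limited comparison. Dmbt1, a scavenger receptor protein of secretions, was higher in mitotic cells at 111 against 62.2 CPM in EL1 and 515 against 352 CPM in WTg (0.84 and 0.55), with 0.41 and 0.08 (−0.02 to 0.18) in the depth-limited comparison. Reg3b had 0.01 and −0.64. The genes past 2-fold were Reg2 in both libraries, in opposite directions (2.39 and −1.24), with Reg3g higher in EL1 (1.60) and Reg3a lower in WTg (−1.11), the last 2 named after their values were seen. Reg genes share much of their sequence, so reads could be split among them.

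The transcription factors of the acinar lineage did not follow the enzymes. None of 10 measured in EL1 passed 2-fold, and 1 of 11 in WTg, Ehf, was at least 2-fold higher, while none was 2-fold lower. In WTg 7.5% of all genes were 2-fold higher. List medians were 0.23 in EL1 and 0.32 in WTg, and 0.74 and 0.22 in the depth-limited comparison, where 6 of 9 genes measured in both libraries had a ratio above 0 in both and 2 a ratio below 0 in both, shares near the 56.2% and 18% of all genes. Some members stood above the comparison cells and others below them.

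Ptf1a, the DNA-binding subunit of the acinar PTF1 complex, also marks pancreatic progenitors. It stood at 68.6 CPM in mitotic cells (62.9 to 74.6) and 39.3 CPM in the others (35.5 to 43.3) in EL1, and at 41.7 (37.4 to 46.4) and 33.7 CPM (29.9 to 37.9) in WTg. The log2 ratios were 0.80 (0.62 to 0.99) and 0.31 (0.07 to 0.54), with 1.74 and 0.41 in the depth-limited comparison. After thinning to 10000 UMIs a Ptf1a UMI was present in 27.8% of mitotic cells and 16.2% of the others in EL1, and in 28% and 14.3% in WTg. In macrophage-marked barcodes, which should lack the gene, the shares were 11.1% of 18 and 2.94% of 34. Ptf1a was thus detected more often in dividing cells of both libraries and at a higher level, with the larger ratio in EL1.

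Gata4, a zinc finger factor of early pancreas and acinar cells, stood at 28.7 against 20.7 CPM in EL1 and 44.7 against 33.7 CPM in WTg, ratios of 0.48 (0.20 to 0.75) and 0.41 (0.18 to 0.64). Ehf, an epithelial ETS factor, stood at 22.8 against 14.5 CPM in EL1 (0.65, 0.33 to 0.98) and 13.5 against 5.32 CPM in WTg (1.34, 0.83 to 1.88), and 22.5% of its WTg mitotic UMIs came from 1 cell. Xbp1, which drives the secretory apparatus of the endoplasmic reticulum, was level at 493 against 490 CPM in EL1 and 391 against 379 CPM in WTg. Bhlha15, known as Mist1 and tied to granule maturation and the fully differentiated acinar state, stood at 33.0 CPM (29.2 to 37.3) against 46.0 CPM (42.0 to 50.4) in EL1. In WTg it stood at 70.3 CPM (64.7 to 76.3) against 78.4 CPM (72.4 to 84.6). The ratios were −0.48 (−0.70 to −0.26) and −0.16 (−0.32 to 0.01), with −0.84 and −0.80 in the depth-limited comparison. Rbpjl, the partner of Ptf1a in mature acinar cells, stood at 124 against 138 CPM in EL1 and 114 against 149 CPM in WTg, ratios of −0.15 (−0.27 to −0.03) and −0.38 (−0.51 to −0.26). Bhlha15 and Rbpjl thus had ratios below 0 in both libraries, whereas Ptf1a and Gata4 had ratios above 0 in both. The direction of Rbpjl turned in EL1 after thinning before the rule (0.0271). With comparison cells weighted to the depth of the mitotic cells Rbpjl turned in both libraries (0.19 and 0.30). There Bhlha15 in WTg also stood above 0 (0.49). At 90000 UMIs or more those weights rest on 5 comparison cells in EL1 and, in WTg, on 1 non-epithelial barcode.

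The genes of these factors lie apart in the genome. In GENCODE vM21 (GRCm38.p6) Ptf1a (ENSMUSG00000026735) is at chr2:19445663-19447501 and Rbpjl (ENSMUSG00000017007) at chr2:164403141-164415448. Bhlha15 (ENSMUSG00000052271) is at chr5:144190286-144194441 and Gata4 (ENSMUSG00000021944) at chr14:63198922-63271692. The 3′ libraries count transcripts near their 3′ ends, so no exon or isoform was told apart.

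**Figure D3:**
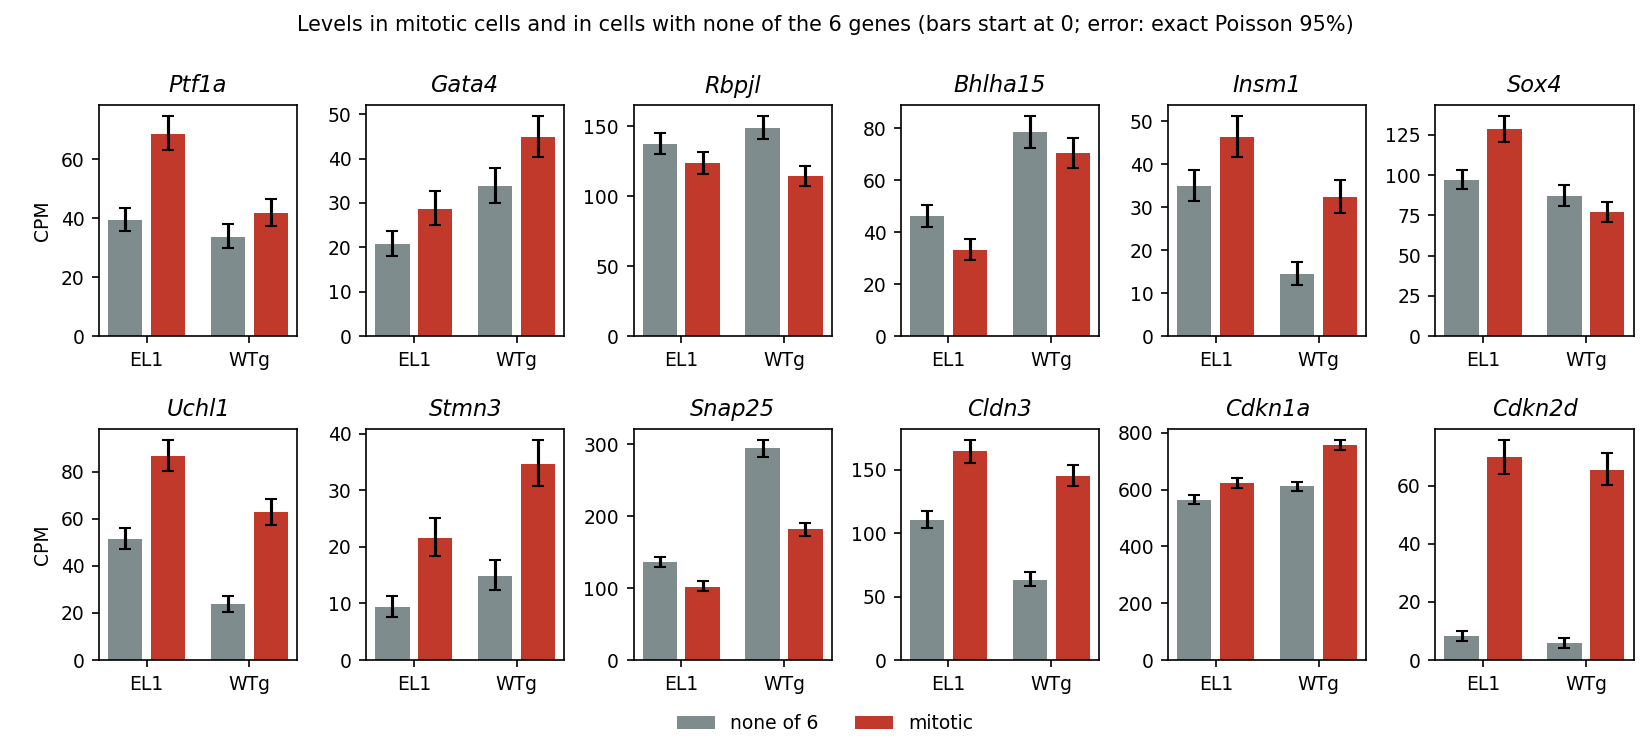
Level of 12 genes in CPM (vertical axes, each from 0) in cells with none of the 6 genes and in mitotic cells of EL1 and WTg, with exact Poisson 95% intervals. Ptf1a, Gata4, Insm1, Uchl1, Stmn3, Cldn3, Cdkn1a and Cdkn2d are higher in mitotic cells of both libraries than in the other cells. Against cells with 1 of the 6 genes, however, Insm1 in EL1 had −0.28. Rbpjl, Bhlha15 and Snap25 are lower in both libraries. The direction of Rbpjl and Snap25 in both, and of Bhlha15 in WTg, turned with comparison cells weighted to the depth of the mitotic cells. At 90000 UMIs or more those weights rest on 5 comparison cells in EL1 and, in WTg, on 1 non-epithelial barcode.

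Dividing cells also kept the neuroendocrine granule genes. The list summed to 4915 CPM in mitotic cells and 5300 CPM in the others in EL1, and to 4033 and 4395 CPM in WTg. Of 19 genes measured in EL1 and 21 in WTg, 2 in each library were at least 2-fold higher and none 2-fold lower, where 6.5% and 7.5% of all genes were higher. The medians were −0.03 and 0.11, and 0.45 and 0.05 in the depth-limited comparison. There 11 of 19 genes had a ratio above 0 in both libraries and 4 a ratio below 0 in both, where 56.2% and 18% of all genes did. The share above 0 was thus near that of all genes.

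Chga, the chromogranin A gene, carried most of the sum. It stood at 3569 against 3932 CPM in EL1 (−0.14, −0.16 to −0.12) and at 2154 against 2558 CPM in WTg (−0.25, −0.28 to −0.22). In the depth-limited comparison the EL1 ratio was 0.22 and the WTg ratio −0.47, so its direction in EL1 turned with the cells compared. Macrophage-marked barcodes, summed together, held 1420 CPM of Chga in EL1 and 366 CPM in WTg, so a single Chga UMI does not mark a cell. The whole granule list had medians of 2 and 0 UMIs per 10000 in these barcodes, with maxima of 114 and 44. The summed level thus does not describe the median barcode. Chgb, its relative, stood at 224 against 205 CPM in EL1 and 307 against 297 CPM in WTg. Vgf, a granule protein cut into peptides, stood at 201 against 200.1 CPM in EL1 and 308 against 214 CPM in WTg (0.52, 0.43 to 0.61). Cpe, the carboxypeptidase that trims prohormones, had −0.14 and −0.09.

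The granule list held genes on both sides. Snap25, a SNARE protein of regulated release, was lower in mitotic cells at 102 against 136 CPM in EL1 (−0.41, −0.54 to −0.29) and 182 against 294 CPM in WTg (−0.70, −0.79 to −0.60). Its direction turned in both libraries with comparison cells weighted to the depth of the mitotic cells. At 90000 UMIs or more those weights rest on 5 comparison cells in EL1 and, in WTg, on 1 non-epithelial barcode. Uchl1, a ubiquitin hydrolase of neurons and neuroendocrine cells, stood at 86.9 CPM (80.5 to 93.6) against 51.6 CPM (47.3 to 56.2) in EL1 and 62.9 CPM (57.6 to 68.5) against 23.7 CPM (20.5 to 27.3) in WTg. Its ratios were 0.75 (0.59 to 0.92) and 1.41 (1.17 to 1.65). Stmn3, a stathmin that acts on microtubules, stood at 21.6 against 9.30 CPM in EL1 and 34.7 against 14.9 CPM in WTg, ratios of 1.21 (0.84 to 1.59) and 1.22 (0.91 to 1.54). After thinning, a Stmn3 UMI was present in 18.3% and 32.0% of mitotic cells, 10.9% and 14.8% of the others and none of the macrophage-marked barcodes in EL1 and WTg. Pcsk1, a prohormone convertase named after its values were seen, stood at 14.1 against 6.95 CPM and 25.7 against 15.5 CPM (1.02 and 0.73). Resp18, a granule protein, had −0.43 in EL1, where the depth-limited ratio was 0.22, and 0.11 in WTg.

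Endocrine transcription factors were sparse, with 8 of 21 measured in each library. None passed 2-fold in EL1, and in WTg 1 of the 8, Insm1, was at least 2-fold higher and 1 lower. The shares of all genes 2-fold higher and lower in WTg were 7.5% and 4.79%. Insm1, a zinc finger repressor that starts the endocrine programme and is itself known to restrain the cell cycle, stood at 46.3 CPM against 35 CPM in EL1 (0.40, 0.19 to 0.62). In WTg it stood at 32.3 against 14.5 CPM (1.16, 0.84 to 1.48), and the depth-limited ratios were 1.16 and 1.44. Against cells with 1 of the 6 genes its EL1 ratio turned to −0.28, and the WTg ratio was 1.66. Insm1 had a UMI in 88 of 126 and 53 of 125 mitotic cells. Sox4, a progenitor factor needed for endocrine differentiation, stood at 129 against 97.2 CPM in EL1 (0.40) and 77 against 87.2 CPM in WTg (−0.18), with depth-limited ratios of 0.88 and 0.14. Pdx1, the factor of the early pancreas and beta cells, had 0.20 and 0.33, with the EL1 interval holding 0. St18 had −0.28 and 0.41 and Nkx2-2 −0.36 and −0.07, and the intervals of both held 0 in EL1.

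Peptide and amine genes were at low levels, with 5 of 20 measured in EL1 and 6 in WTg. Ddc, the decarboxylase that makes serotonin and dopamine, stood at 37.3 against 29.5 CPM in EL1 and 31.5 against 22.7 CPM in WTg. Hdc, which makes histamine, stood at 28.6 against 16 CPM in EL1 and 9.97 against 2.42 CPM in WTg, where 6 mitotic cells held all its UMIs. The genes past 2-fold were Sct, the secretin gene, in EL1 (1.12 from 49 mitotic UMIs) and Hdc (2.04) and Ghrl, the ghrelin gene, in WTg (1.21 from 46), with Sct and Ghrl named after their values were seen. Penk, the enkephalin precursor, stood at 32.0 against 41.2 CPM in EL1 (−0.36, and 0.72 in the depth-limited comparison) and 18.8 against 10.9 CPM in WTg (0.79), and 39.4% of its EL1 mitotic UMIs came from 1 cell.

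Transcripts of both lineages were found in the same barcodes of dividing cells. With barcodes of other cell types left out and each cell thinned to 10000 UMIs, at least 100 enzyme UMIs and at least 10 granule UMIs were found together in 90 of 121 mitotic cells of EL1 (74.4%, 65.6 to 81.9) and 91 of 119 of WTg (76.5%, 67.8 to 83.8). Among cells without the 6 genes the shares were 63.9% of 349 (58.6 to 68.9) and 73.2% of 213 (66.8 to 79.1). The median macrophage-marked barcode held 15.5 enzyme and 2 granule UMIs in EL1 and 12 and none in WTg. The 95th percentiles of these barcodes were 443 enzyme and 24.8 granule UMIs in EL1 and 2232 and 20.7 in WTg. Some barcodes with markers of another cell type thus also passed each limit. High levels of both together were less common. A cell above the median of the comparison cells for both sums occurred in 6 of 121 mitotic cells of EL1 (4.96%, 1.84 to 10.5) against 10.0% of 349 (7.08 to 13.7), and in 4 of 119 of WTg (3.36%, 0.92 to 8.38) against 10.8% of 213 (6.97 to 15.8). Across cells the 2 sums ran in opposite directions, with Spearman's rho of −0.60 over 121 mitotic and −0.62 over 349 other cells of EL1, and −0.64 over 119 and −0.75 over 213 cells of WTg. Cells of 1 library share its free RNA, and both sums are parts of the same total of 10000 UMIs, so these are descriptions.

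The upper range of enzyme content was lower in the mitotic group. Enzyme UMIs per 10000 had a median of 1206 with a 5th to 95th percentile range of 368 to 2498 over 126 mitotic cells of EL1, against 1325 with 126 to 3428 over 357 others. In WTg the median was 1762 with 314 to 2990 over 125 mitotic cells, against 2046 with 10.8 to 4498 over 237 others. Without the barcodes of other cell types the ranges were 381 to 2528 against 208 to 3433 in EL1 and 338 to 3005 against 318 to 4651 in WTg, so the low ends in WTg were close. No mitotic cell had 0 enzyme UMIs in either library, but neither did any comparison cell or macrophage-marked barcode. Granule UMIs had medians of 28.5 and 29 in EL1 and 30 and 27 in WTg, and of 31 and 32 in WTg without those barcodes. The upper percentiles of enzyme content were thus higher in the cells without the 6 genes.

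**Figure D4:**
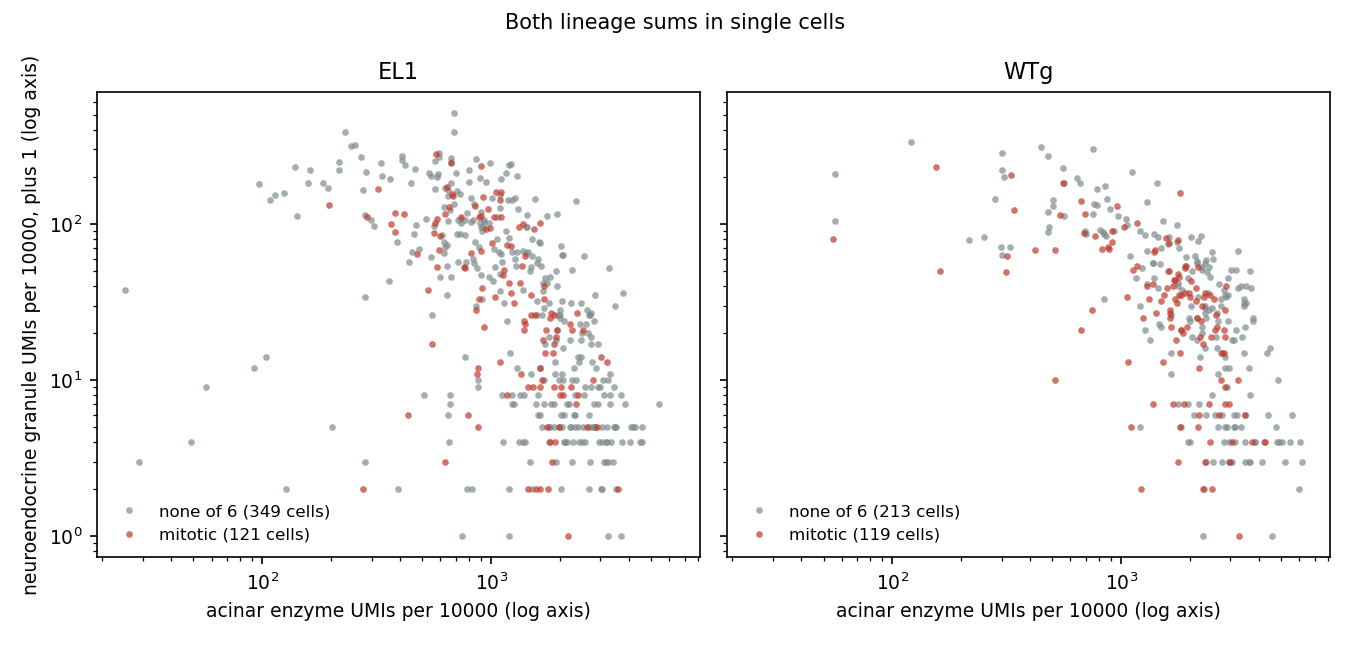
Neuroendocrine granule UMIs per 10000 plus 1 (vertical axes, log scale) against acinar enzyme UMIs per 10000 (horizontal axes, log scale) for single cells of EL1 and WTg, mitotic cells and cells with none of the 6 genes. Mitotic cells lie within the cloud of the other cells along both axes, with Spearman's rho of −0.60 in EL1 and −0.64 in WTg.

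The share of mitotic cells was then read along the enzyme content, with the cells of the filter, without those marked as other cell types, ranked by enzyme UMIs per 10000 and cut into quartiles. After thinning to 10000 UMIs, the rule was met in EL1 by 10.2%, 11.7% and 12.1% of cells in the lower 3 quartiles and by 4.67% of 214 cells (2.26 to 8.43) in the highest. In WTg the shares were 18.8% (13.1 to 25.6), 15.2%, 9.15% and 3.03% (0.99 to 6.93). Without thinning the lowest and highest quartiles stood at 14% and 6.54% in EL1 and 22.4% and 10.9% in WTg. A high enzyme content leaves fewer of the 10000 UMIs for the rule genes. The rule was therefore also applied to 5000 UMIs drawn from all genes but the enzymes, a choice made after seeing the data, and the highest quartile then stood at 1.40% against 8.37% in the lowest in EL1 and at 3.68% against 17.0% in WTg. Along the granule genes no such order was seen after thinning, with 6.98%, 13.6%, 9.35% and 8.88% in EL1 and 9.70%, 10.4%, 14.6% and 11.5% in WTg. In the draw from all genes but the enzymes the granule quartiles stood at 5.58%, 7.48%, 7.94% and 6.07% in EL1. In WTg they stood at 7.36%, 10.4%, 9.76% and 12.1%, with the lowest quartile lowest and the highest quartile highest. Cells of the highest enzyme content were thus the least often mitotic in both libraries, but the interval of that quartile overlapped those of the other 3 in EL1 (lower limits of 6.52 to 8.09) and that of the third quartile in WTg (5.21 to 14.6). The intervals of the granule quartiles overlapped as well.

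**Figure D5:**
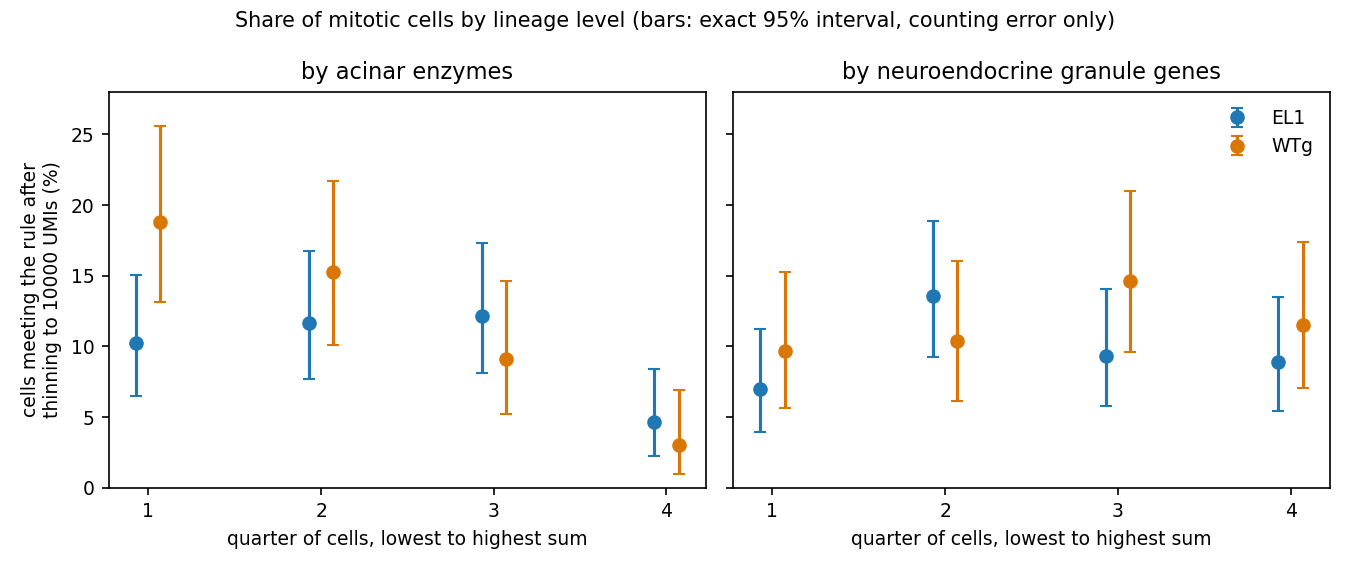
Percent of cells that met the rule after thinning to 10000 UMIs (vertical axis, exact 95% intervals) by quartile of acinar enzyme content and of neuroendocrine granule content (horizontal axes), in EL1 and WTg. The highest enzyme quartile stands lowest, at 4.67% in EL1 and 3.03% in WTg, with an interval that overlaps the other quartiles in EL1 and the third in WTg, and the granule quartiles overlap too.

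Genes of the duct lineage were split. Of 10 measured in each library, none was 2-fold higher and 1 was lower in EL1, and 1 was higher and 1 lower in WTg, with medians of −0.18 and −0.23. Among all genes 1.13% were 2-fold lower in EL1, and 7.5% were higher and 4.79% lower in WTg. In the depth-limited comparison the duct medians turned to 0.08 in EL1 and 0.16 in WTg, where all genes had 0.19 and 0.25. Cldn3, a tight junction protein, stood at 164 against 110 CPM in EL1 (0.57, 0.46 to 0.69) and 145 against 63.2 CPM in WTg (1.20, 1.05 to 1.35). Cldn4, its relative, stood at 46.9 against 63.3 CPM (−0.43) and 29.1 against 69.9 CPM (−1.27). Sox9, the factor of duct and progenitor cells, stood at 205 against 281 CPM (−0.46) and 128 against 170 CPM (−0.41). Anxa2 had −0.66 and −0.24, with 0.39 in WTg in the depth-limited comparison. Spp1 had −1.96 in EL1, where 5 mitotic cells held it, and macrophages express it too.

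Several inhibitors of cyclin-dependent kinases stood at or above the level of the comparison cells. Cdkn1a, the p53 target p21, stood at 623 against 565 CPM in EL1 (0.14, 0.08 to 0.19) and 757 against 611 CPM in WTg (0.31, 0.25 to 0.36), with a UMI in 126 of 126 and 125 of 125 mitotic cells. Cdkn2a, the gene of p16 and Arf, stood at 266 against 198 CPM and 123 against 61.1 CPM (0.42 and 1.01). Cdkn2c, p18, had 0.51 and 1.0, and Cdkn1b, p27 and named after its values were seen, had 0.59 and 0.84. Cdkn2d, p19, whose transcript is known to peak after the start of S phase, stood at 69.7 against 8.13 CPM in EL1 (3.1, 2.77 to 3.45) and 65.5 against 5.68 CPM in WTg (3.53, 3.1 to 3.99). In the same list the antiproliferative genes Btg2 (−0.30 and −0.43) and Btg1 (−0.36 and −0.23) were lower in mitotic cells, but in the depth-limited comparison Btg1 had −0.04 (−0.19 to 0.11) and 0.19 (0.03 to 0.34). Of the whole list 2 of 15 in EL1, Cdkn2d and Cdkn1c, and 5 of 17 in WTg, with Cdkn2a, Cdkn2c and Ccng2 in addition, were at least 2-fold higher, where 6.5% and 7.5% of all genes were. None was 2-fold lower in EL1, and in WTg Ccnd1 and Ccnd2 were, with 94.3% and 100% of their mitotic UMIs in 1 cell. Cdkn1c, p57 and named after its values were seen, stood at 44.0 against 11.9 CPM and 90.8 against 41.8 CPM (1.88 and 1.12).

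Genes of DNA replication were higher as a group, which the rule fixes in part since Ccna2 and Top2a also belong to S phase and G2. Of 25, 15 in EL1 and 11 in WTg were at least 2-fold higher, where 6.5% and 7.5% of all genes were. The list medians were 1.12 and 0.96. Rrm2, a ribonucleotide reductase subunit, stood at 170 against 10.3 CPM and 221 against 8.59 CPM. Pcna, the sliding clamp, stood at 182 against 85.5 CPM and 197 against 101 CPM. Mcm6, a helicase subunit loaded in G1, was level at 108 against 109 CPM and 92.9 against 98.0 CPM, and Ung, a repair glycosylase, stood at 26.9 against 29.7 CPM and 18.7 against 27.5 CPM. The summed S phase level was already high at 3 of the 6 rule genes, at 1946 CPM in EL1 and 1766 CPM in WTg. It stood lower at 6 genes, at 1613 CPM in EL1 and 1587 CPM in WTg.

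Mitotic cells of WTg and EL1 differed in the enzymes they held. Between the libraries, 3.8% of 10931 genes were at least 2-fold higher and 3.53% at least 2-fold lower in WTg mitotic cells. Of 24 enzyme genes 11 were 2-fold higher in WTg and none lower, with a median log2 ratio of 0.86, and in cells without the 6 genes 12 of 25 were higher and none lower, with a median of 0.94, where 7.07% and 3.79% of 10972 genes were higher and lower. Prss1 stood at 92.4 CPM in EL1 and 5604 CPM in WTg mitotic cells, and Cela3b, an elastase, at 289 and 2885 CPM. Of 21 granule genes 3 were 2-fold higher and 1 lower in WTg. Plk1 differed by 0.08 (−0.20 to 0.37) and Cdc20 by 0.82 (0.69 to 0.96) between the mitotic cells of the libraries, as values of the genes that chose them. Library, strain background and transgene cannot be told apart in any of these ratios.

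Genes named by size alone were mostly other cell cycle genes and genes of other cell types. Outside the lists of the cycle, the 10 genes with the highest ratio in both libraries were Ska1, Depdc1a, Esco2, Sgo1, Hist1h3c, Hist1h2ap, Cit, Pbk, Melk and Cdca2, of which Sgo1 guards centromere cohesion and Cit acts in cytokinesis. Hist1h2ap, a replication-dependent histone gene, stood at 701 against 7.25 CPM in EL1 and 979 against 5.68 CPM in WTg, and histone copies are hard to tell apart. The 10 lowest were Hmox1, Laptm5, Emp1, C4b, AY036118, 2210010C04Rik, Mrc1, Igfbp4, C1qb and Bcr. Laptm5, Mrc1 and C1qb are macrophage or leukocyte genes held by 2 to 12 mitotic cells. 2210010C04Rik, a trypsinogen-family gene, stood at 82.3 against 558 CPM in EL1, where 65.8% of the UMIs of the comparison cells came from 1 cell, and at 1165 against 2337 CPM in WTg (−1.0). AY036118 stood at 78.8 against 176 CPM in EL1 and 79.9 against 164 CPM in WTg. With the comparison cells weighted to the depth of the mitotic cells its ratios were 0.04 and 0.03. At 90000 UMIs or more those weights rest on 5 comparison cells in EL1 and, in WTg, on 1 non-epithelial barcode. Bcr, a kinase and GTPase regulator, had −0.86 and −1.38, and −0.80 and −0.54 once non-epithelial barcodes were left out. In WTg 35.7% of the Bcr UMIs of the comparison cells came from 1 cell.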

How the data were processed

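RNA was measured in single cells of dissociated pancreatic tumours with 10x Chromium 3′ v3.1 chemistry. The authors deposited a matrix of UMI counts for each library, and its header names Cell Ranger 6.0.2. Their processing notes name GRCm38, R 4.1 and Seurat 4.0.5, and whether intronic reads were counted is not given in the sources used here. The dense count tables were not used. Counts were read with Python 3.11.15, numpy 2.4.6, scipy 1.17.1 and pandas 2.3.3. UMIs were summed over the cells of each group and scaled to CPM. Levels have exact Poisson intervals, log2 ratios exact conditional binomial intervals and shares exact Clopper-Pearson intervals, at 95%, checked on simulated data. List counts and medians use genes with at least 50 UMIs in both cell groups together. A group with 0 UMIs was set to 3 counts and its ratio is a bound. No test was made, with 1 library per group, and cells are not replicates.

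The members and gene lists were chosen with earlier results of these data known. The values of 1 listed endocrine factor are not reported here. Genes named are the 6 rule genes, Mettl3, the up to 5 listed genes per list with the most UMIs, those with the highest and lowest ratio per library, and genes outside the cycle lists chosen by ratio size from those with at least 200 UMIs. A barcode with at least 4 genes of a macrophage, leukocyte, endothelial or fibroblast list was called non-epithelial, and one with at least 4 macrophage genes macrophage-marked. Scrublet (scanpy 1.11.5, expected rate 2%) called 4 doublets in each library, of which 2 in EL1 and 1 in WTg were mitotic, and these were kept. Alternatives changed the rule, the depth floor, thinning, weights, scaling, comparison cells, doublets and count minimum. Leaving out shared barcodes, limiting depth to 20000 to 60000 UMIs and applying the rule to non-enzyme UMIs were chosen after seeing the data. Gene coordinates are those of GENCODE vM21 and promoters those of RefSeq, both GRCm38.p6.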

Additional observations from a re-analysis of the deposited data

Results flagged for a closer look

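Some listed genes had intervals wholly on opposite sides of 0 in the libraries, and for none was the difference between the libraries tested. Reg2, a regenerating protein gene, had a log2 ratio of mitotic cells over cells with none of the 6 genes of 2.39 in EL1, where 58.0% of its mitotic UMIs came from 1 cell, and −1.24 in WTg. Krt19, a duct keratin, had −0.34 in EL1 and 0.35 in WTg, and Krt18, a keratin of simple epithelia, had −0.0790 and 0.11. Hba-a1, an alpha globin gene of red blood cells, had 1.21 in EL1, where 70.8% of its mitotic UMIs came from 1 cell. In WTg Hba-a1 had −5.02, and 96.9% of the UMIs of the comparison cells came from 1 cell. Hbb-bs, a beta globin gene, had 0.47 and −3.68. In the depth-limited comparison both globin genes had ratios below 0 in both libraries. Their ratios there lay between −0.64 and −0.08 in EL1 and between −5.23 and −3.63 in WTg.

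Barcodes outside the cell filter also met the gene part of the rule. In EL1, 35 of 64 barcodes with at least 2 Atp4b UMIs that otherwise passed the filter held at least 4 of the 6 genes (54.7%, 41.7 to 67.2), at a median of 35312 UMIs, and WTg had no such barcode. Among barcodes of at least 1000 and under 10000 UMIs that otherwise passed, 4 of 170 in EL1 (2.35%, 0.64 to 5.91) and 4 of 202 in WTg (1.98%, 0.54 to 4.99) met it. Among WTg barcodes with over 20% mitochondrial UMIs, 5 of 440 met it (1.14%, 0.37 to 2.63), and in EL1 2 of 393 did (0.51%, 0.06 to 1.83).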

How the results depend on the processing

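No paired analysis was possible because the groups hold 1 library each and no result comes from a test. Each alternative changed 1 choice, or 2 where it limited depth and left out non-epithelial barcodes. Among values of the mitotic share, the enzyme and granule medians and the 2-fold counts, 104 stayed within the counting interval of the reported value (for a list, the medians of its genes' bounds) or, for counts of genes, within 1.5 times of it, 41 moved further and 1 turned. For single genes and other lists, 490 stayed, 221 moved and 21 turned.

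The share of cells was 20.5% in EL1 and 24.6% in WTg with at least 3 of the 6 genes, 11% and 13.8% with at least 5, and 9.78% and 10.8% after thinning. It was 18.2% in EL1 with at least 20000 UMIs and 14.3% in WTg in the depth-limited comparison.

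The enzyme median, −0.10 in EL1 and −0.15 in WTg, was −0.34 and −0.37 after thinning, −0.49 and −0.39 in the depth-limited comparison, and −0.20 and −0.27 with the median of all genes set to 0. In EL1 it was −0.18 without shared barcodes and −0.38 with depth weights. In WTg it was −0.26 without non-epithelial barcodes and −0.24 against cells with 1 of the 6 genes, and it turned to 0.45 with depth weights. Those weights rest on few comparison cells, since at 90000 UMIs or more there were 5 in EL1 and 1, a non-epithelial barcode, in WTg, against 23 and 25 mitotic cells.

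The granule median was 0.76 in EL1 and 0.92 in WTg with depth weights. In EL1 it was 0.45 in the depth-limited comparison and 0.17 with at least 20000 UMIs, and in WTg 0.42 after thinning and 0.43 against cells with 1 of the 6 genes.

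Genes at least 2-fold higher numbered 1362 in EL1 and 2275 in WTg with depth weights, 1220 and 1383 with a minimum of 10 UMIs and 347 and 407 with a minimum of 200. Genes 2-fold lower numbered 82 and 1066 with depth weights, 474 and 1098 with 10 UMIs, 32 and 192 with 200, and 50 and 60 without non-epithelial barcodes. They numbered 265 in EL1 after thinning, and in WTg 153 against cells with 1 of the 6 genes and 104 in the depth-limited comparison.

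Depth weights turned Chga to 0.72 in EL1 and 0.64 in WTg, Rbpjl to 0.19 and 0.30, Snap25 to 0.18 and 0.25, Clps, Cpa1 and Prss2 in WTg to 0.10, 0.41 and 0.11, the zymogen granule median in WTg to 0.35 and the macrophage median in EL1 to 1.10. Chga in EL1 was also 0.22 in the depth-limited comparison, 0.14 with at least 20000 UMIs and 0.00608 without shared barcodes, and in WTg 0.10 against cells with 1 of the 6 genes. Against those cells Insm1 in EL1 was −0.28 and the peptide median −0.0589. Rbpjl in EL1 was 0.0271 after thinning. The macrophage median was 0.10 in EL1 and 0.21 in WTg without non-epithelial barcodes and 0.66 in EL1 in the depth-limited comparison. Apart from what a setting leaves out by construction, the cause of these changes was not tested.

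Counting error is the only error measured, and 1 library per group leaves the spread between animals unknown. Ratios of genes under 50 UMIs were not used.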

Other observations

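The transcripts of the m6A machinery were close to level between mitotic cells and cells with none of the 6 genes. None of 15 genes in EL1 and 14 in WTg passed 2-fold in either direction, with median log2 ratios of 0.03 and 0.20. Rbm15, which guides the methyltransferase complex to its targets, stood at 64.3 CPM in mitotic cells against 49.3 CPM in EL1 (0.38, 0.20 to 0.56) and at 59.6 against 35.2 CPM in WTg (0.76, 0.55 to 0.97). Mettl14, the partner of Mettl3, stood at 10.5 against 9.99 CPM and 10.7 against 8.10 CPM, with intervals that held 0. Alkbh5, a demethylase, stood at 157 against 153 CPM in EL1 and at 91.0 against 78.0 CPM in WTg, a log2 ratio of WTg over EL1 of −0.78 (−0.92 to −0.65) in mitotic cells.

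Genes of protein folding in the endoplasmic reticulum, which a secretory cell uses heavily, stood slightly lower in mitotic cells. None of 17 passed 2-fold in either library, with medians of −0.13 in EL1 and −0.08 in WTg, and 13 of 17 had a ratio below 0 in both libraries in the depth-limited comparison, where 18% of all genes did. Hspa5, the chaperone BiP, stood at 934 against 1265 CPM in EL1 (−0.44) and 1097 against 1430 CPM in WTg (−0.38). Sec61b, a subunit of the translocation channel, had −0.37 and −0.18. Hsp90b1, the chaperone GRP94, stood at 590 against 461 CPM in EL1 (0.35) and 640 against 516 CPM in WTg (0.31).

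Of 20 genes that led tumour cell states in earlier results, 15 were measured in EL1 with none 2-fold higher and 3 lower, and 18 in WTg with 3 higher and 1 lower. Fst, the activin-binding protein follistatin, stood at 18.4 against 43.9 CPM in EL1 (−1.25, −1.53 to −0.98) and 11.1 against 19.3 CPM in WTg (−0.81, −1.19 to −0.43), and its ratio in the depth-limited comparison was −2.06 in EL1 and 0.69 in WTg. Of the epithelial genes, 6 measured in EL1 and 5 in WTg, none passed 2-fold. Endothelial markers numbered 3 measured in EL1 with 2 higher and 8 in WTg with 7 lower. Fibroblast and pericyte markers numbered 4 with 3 lower in EL1 and 8 with 7 lower in WTg. Of these, Col1a1 and Dcn were at 0 in WTg mitotic cells, but Sparc was not. The fibroblast and pericyte list summed to 44.7 CPM in WTg mitotic cells and 362 CPM in the others. Without non-epithelial barcodes the sums were 8.04 and 8.54 CPM. Of 2 measured neutrophil and lymphocyte markers in each library 1 was lower. Once non-epithelial barcodes, called with these marker lists among others, were left out, no gene of these marker lists was 2-fold lower in either library. The WTg endothelial median then moved from −1.75 to 0.68. Over all genes and all cells, 6.5% were 2-fold higher and 1.13% lower in EL1, and 7.5% and 4.79% in WTg.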
